A study of Danio rerio with 8 samples.

Results

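Histone genes of zebrafish pineal complex cells were compared between wild-type and tbx2b knockdown embryos. The genes were chosen by name, as every row of the authors' table whose symbol begins with h1f, h2af, h3f or hist followed by a letter or digit, ignoring case. Of 32433 rows in the table, 53 met this rule. They divide into 4 rows for linker H1, 10 for replacement variants and 39 for core histone copies, most of which lie in gene clusters. The family was picked with its response in this comparison known, so the fold changes, p and q values below describe it and test nothing about it.

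The cells were sorted by Kaede fluorescence from the heads of Tg(flhBAC:kaede)vu376 embryos at 24 to 26 hours post-fertilization, in which regulatory sequence of flh, a homeobox gene of the pineal anlage and the notochord, drives the photoconvertible protein Kaede. All 8 libraries carry this transgene. The 4 wild-type libraries came from embryos that received no injection. For the 4 knockdown libraries a tbx2b splice morpholino was injected, at 5 ng for 2 libraries and at 6 ng for the other 2. Per the labels, libraries come in pairs of technical replicates, so each group rests on 2 RNA samples. No source used here states whether the authors' test counted 2 or 4 replicates per group. Counting 4 would understate the spread between RNA samples, so calls as well as missed calls carry this limit. Injection and loss of Tbx2b cannot be told apart in this layout, nor can dose and RNA sample within the knockdown. The authors deposited 1 value per gene and group in FPKM, fragments scaled by transcript length and by mapped fragments, so neither replicate spread nor depth can be stated. FPKM pairs below give the wild-type group before the knockdown, and the words rose and fell are kept for genes that the authors' test called.

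Histones package DNA. Core histones H2A, H2B, H3 and H4 form the nucleosome, and linker histone H1 binds where DNA enters and leaves it. Most core histone genes lie in clusters of near-identical copies that are transcribed in S phase, and their mRNAs end in a stem-loop in place of a poly(A) tail. Replacement variants such as H3.3 and H2A.Z come from genes outside the clusters, are made through the cell cycle and are placed into chromatin without DNA replication. In mammals the linker variant H1.0, the product of the h1f0 ortholog, accumulates in cells that leave the cycle and differentiate.

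Linker H1 genes were lower in the knockdown as a class, replacement variants stood close to their wild-type level, and core copies had folds in both directions. The summed FPKM of the 4 linker rows was 1682 in wild-type and 842 in the knockdown, a 2.00-fold lower level. For the 10 replacement variants the sums were 12136.5 and 11534 FPKM, 1.05-fold lower. For the 39 core rows they were 1387 and 769.5 FPKM, 1.80-fold lower, and most of that difference lay in 2 rows on chromosome 10. The more abundant of the 2, HIST2H2AB (28 of 30), was classed as core by its listed symbol. Its current symbol, h2ax1, is an H2A.X type name, and h2afx, the H2A.X gene by listed symbol, was classed with the replacement variants. The plot of histone rows against all tested genes shows the 3 classes.

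**Figure D1:**
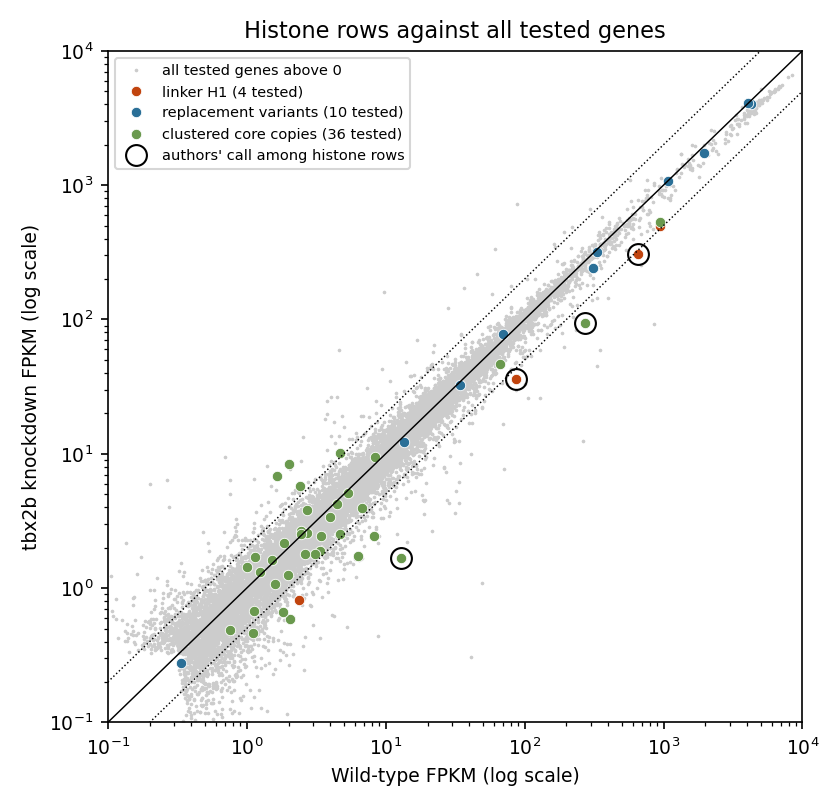
Authors' group FPKM in wild-type (x axis) and tbx2b knockdown (y axis), both on log scales, for 4 linker, 10 replacement variant and 36 core histone rows over the 18800 tested genes above 0 in both groups (grey). The solid line marks equal values and the dotted lines 2-fold differences; circled points carry the authors' call. The 4 linker rows lie below the solid line, the replacement variants near it, and the core rows on both sides.

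Of 50 tested histone rows 4 fell and 0 rose by the authors' call, in a table in which 0.332% of 18954 tested genes were called lower and 0.106% higher. The fallen rows were h1f0, h1fx, hist2h2l and HIST2H2AB (20 of 30). A further 3 histone rows were not tested by the authors. At an unadjusted p under 0.05 in the authors' deposited table there were 9 lower and 4 higher histone rows, against 3.76% lower and 1.77% higher over all tested genes. The median log2 fold change in the authors' deposited table was -0.26 over the 50 tested histone rows, 35 of them below 0, and -0.03 over the 18800 tested genes above 0 in both groups. Log2 fold changes below 0 were found in 70% of the histone rows and 54.1% of those genes.

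All 4 linker H1 rows were lower in the knockdown, and 2 of them carried the authors' call. Over all tested genes 0.332% were called lower. Of those above 0 in both groups, 54.1% had a log2 fold change below 0. H1f0 (ENSDARG00000038559, Zv9 chromosome 24, 39080413 to 39081731), the H1.0 gene, fell from 649.7 to 307 FPKM, a 2.12-fold difference, and the authors' deposited table lists a log2 fold change of -1.08 and a q of 0.0457. No called gene has a larger q in the authors' deposited table, and 12 called genes have this one, so the call of h1f0 lies at the authors' threshold. H1fx (ENSDARG00000054058, chromosome 6, 40701152 to 40702449), the gene of the variant H1.10, fell from 86.8 to 36.1 FPKM. Its difference was 2.40-fold, listed in the authors' deposited table with a log2 fold change of -1.26 and the smallest q it holds, 0.0176.

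The most abundant linker gene missed the call. Histh1l (ENSDARG00000035519, chromosome 5, 29077506 to 29078900), an H1-like gene, was at 943 and 498 FPKM. It was 1.89-fold lower, and the authors' deposited table gives it a p of 0.0018 and a q of 0.198. HIST1H1T (ENSDARG00000077504, chromosome 8, 30566733 to 30567435), named after a testis H1 of mammals, was the lowest of the 4, at 2.37 and 0.810 FPKM. For it, the authors' deposited table has a p of 0.0099 and a q of 0.483. Folds of the 4 linker rows thus ranged from 1.89 to 2.93, over wild-type levels from 2.37 to 943 FPKM. The median log2 fold change of the class in the authors' deposited table was -1.17. Among all rows of the table ordered by FPKM, h1f0 stood at rank 195 in wild-type and 343 in the knockdown, and h1fx at 1087 and 2527.

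The maternal linker gene h1m lies outside the name rule. It was listed at 0 in both groups on an unplaced contig and was not tested.

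**Figure D2:**
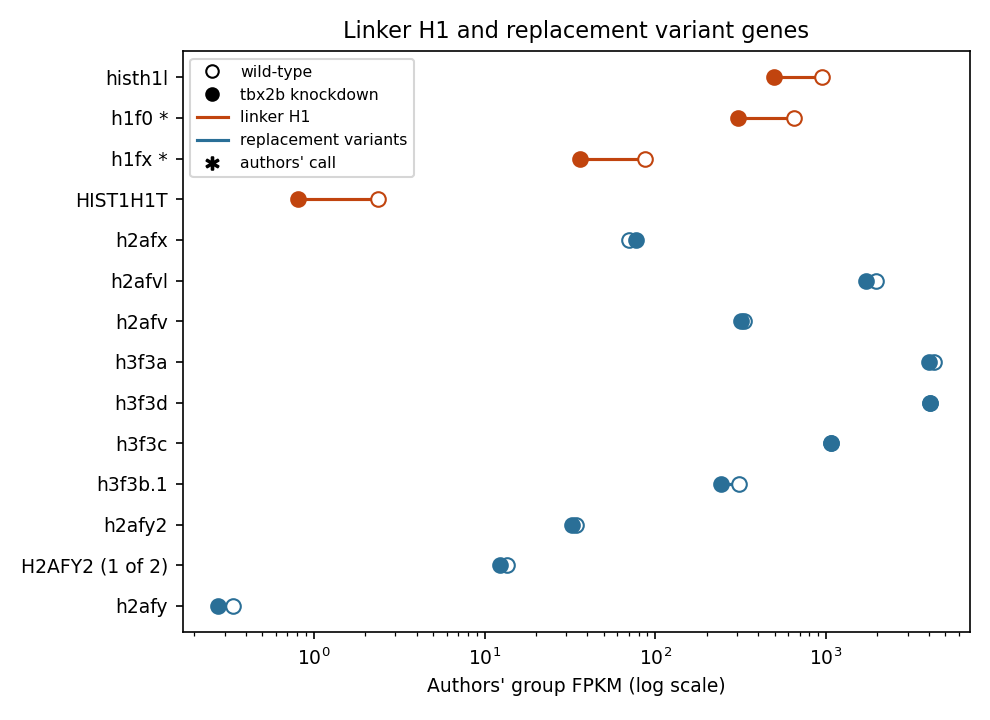
Authors' group FPKM on a log scale (x axis) for each linker H1 and replacement variant gene (y axis), with wild-type as open and knockdown as filled circles and an asterisk for the authors' call. Each group has 1 value per gene, so no error can be drawn. The 4 linker genes are shifted to the left in the knockdown, by 1.89-fold to 2.93-fold, while the open and filled circles of most replacement variants overlap.

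None of the 10 replacement variants was called, against 0.438% of all tested genes in either direction, and none had an unadjusted p under 0.05 in the authors' deposited table, where the smallest p of the class, that of h3f3b.1, was 0.109. The class had a median log2 fold change of -0.10 in the authors' deposited table, with values from -0.35 to 0.14; 8 rows lay below 0 and 2 above. Rescaling both groups to the same FPKM total (TPM) adds 0.106 to every log2 fold change and turns this median to 0.01. The median over all tested genes above 0 in both groups, -0.03 before rescaling, moves up by the same amount. The highest value in the table was 400812 FPKM in wild-type and 414538 FPKM in the knockdown. The totals were 1.456e+06 and 1.353e+06 FPKM, so the rescaling depends strongly on the highest rows. A missed call does not show that the levels were equal, because the spread between libraries is not known.

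H3.3, the replication-independent H3, had the highest summed FPKM of the histone types among the rows that met the name rule. It has 4 genes there. No source used here states the RNA selection. Selection by poly(A) tail would leave core mRNAs under-represented, so this order of histone types carries that limit. H3f3a was at 4286 and 3988 FPKM, and h3f3d at 4059 and 4069 FPKM. H3f3c was at 1076 and 1075 FPKM. H3f3b.1 was the lowest of the 4 and differed most, at 311 and 243 FPKM, 1.28-fold lower. Together the 4 genes amounted to 9732 and 9376 FPKM, a 1.04-fold difference. In order of FPKM, h3f3a and h3f3d stood at ranks 54 and 65 of the table in wild-type and at 38 and 37 in the knockdown.

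H2A.Z, a variant found at promoters, is represented by h2afvl and h2afv. H2afvl was at 1955 and 1719.7 FPKM, and h2afv at 331 and 317 FPKM. H2A.X, which is phosphorylated beside DNA breaks, was one of 2 variant genes with a value above wild-type: h2afx was at 70.0 and 77.4 FPKM. Of the rows counted below as core copies, 2 carry current symbols of this type, h2ax1 and h2ax2, and were lower in the knockdown; with them the H2A.X type rows summed to 1010 and 608 FPKM. MacroH2A, a large variant linked to silent chromatin, had 3 rows. H2afy2 was at 34.4 and 32.4 FPKM, H2AFY2 (1 of 2) at 13.6 and 12.3 FPKM, and h2afy at 0.338 and 0.276 FPKM. The centromeric H3 variant CENPA, which the name rule does not take, was at 11.0 and 12.9 FPKM and was not called.

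The 39 core histone rows hold 30 rows named HIST2H2AB, 5 of H4, 3 of H3, and hist2h2l, whose symbol names H2 without saying which histone. Of the 36 tested, 2 fell and 0 rose, 23 lay below 0 and 13 above, and the median log2 fold change in the authors' deposited table was -0.49. Over all tested genes 0.332% were called lower and 0.106% higher. Below 0 lay 63.9% of the tested core rows, against 54.1% of all tested genes above 0 FPKM in both groups. The core median was -0.15 over core rows at 1 FPKM or more in both groups. This minimum also drops copies that are low in 1 group alone. Examples are HIST2H2AB (19 of 30) at 2.06 and 0.588 FPKM and HIST2H2AB (30 of 30) at 0.997 and 1.43 FPKM. All tested core rows that it drops are low. Their means of both groups run from 0.620 FPKM for HIST2H2AB (29 of 30) to 1.33 FPKM for HIST2H2AB (19 of 30). Of these dropped rows only HIST2H2AB (30 of 30) was higher in the knockdown. The median thus moved when low rows, mostly lower in the knockdown, were left out. The rows differ in level by orders of magnitude. As the RNA selection is not stated and such mRNAs may lack a poly(A) tail, low values need not mean low transcription. Of the 39 rows, 36 were under 20 FPKM in both groups, and the remaining 3 were the pair on chromosome 10 and HIST2H3A on chromosome 25. Clustered copies of the same histone can be near-identical in sequence, which was not checked for these rows. How the authors' counting divided reads among such copies, no source used here states, so a value for 1 copy is uncertain. The gene models are short: 31 of the 39 rows span under 450 bases, all of them with an end minus start that is a multiple of 3, and the most frequent span is 387 bases for H2A and 312 bases for H4. Such models hold the coding length alone. No histone row shared its locus with another row of the table.

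The abundant core pair was lower in the knockdown. Hist2h2l (ENSDARG00000068996, chromosome 10, 30723401 to 30724224) fell from 271 to 94.7 FPKM. The difference was 2.87-fold, listed in the authors' deposited table with a log2 fold change of -1.52 and a q of 0.0176. HIST2H2AB (28 of 30) (ENSDARG00000068995, chromosome 10, 30724443 to 30725341) begins 219 bases after the end of hist2h2l and carries the current symbol h2ax1, an H2A.X type name. It was at 936 and 528 FPKM, 1.77-fold lower, and the authors' deposited table gives it a p of 0.0024 and a q of 0.231, so it was not called. The pair summed to 1208 and 623 FPKM, 1.94-fold lower, close in size to the 2.00-fold difference of the linker sum. HIST2H3A (ENSDARG00000094154, chromosome 25, 36112429 to 36112929), an H3 gene with the current symbol hist2h3c, was at 66.3 and 46.9 FPKM, 1.41-fold lower without a call (the authors' deposited table lists p as 0.0842).

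Below 20 FPKM, the copies had folds in both directions, and 1 of 33 tested rows was called, against 0.438% of all tested genes. These low copies had a median log2 fold change of -0.23 in the authors' deposited table, with 20 below 0 and 13 above, and ranged from -2.94 to 2.05. Below 0 lay 60.6% of them, against 56.5% of all tested rows with a mean of 1 to 13 FPKM. At an unadjusted p under 0.05 in the authors' deposited table, 3 of the low copies were lower and 4 higher. That was 21.2% of the tested low copies, against 5.25% of all tested rows with that mean. These sets were cut by different rules, as the low copies include tested rows with a mean under 1 FPKM, such as HIST2H2AB (29 of 30). HIST2H2AB (20 of 30) (ENSDARG00000075220, chromosome 7, 76824552 to 76824939) fell from 12.9 to 1.69 FPKM. It was 7.66-fold lower, the authors' deposited table lists its q as 0.040, and it had the highest wild-type level of the 36 low copies. HIST2H2AB (25 of 30), on chromosome 7 as well, was at 8.21 and 2.44 FPKM without a call (the authors' deposited table lists p as 0.0033). HIST1H4A, an H4 copy, was at 6.28 and 1.72 FPKM, and the authors' deposited table lists its p as 0.0139.

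Other H2A copies differed the opposite way. HIST2H2AB (24 of 30) was at 2.01 and 8.35 FPKM, 4.15-fold higher, and the authors' deposited table lists p as 0.00135 and q as 0.165. HIST2H2AB (6 of 30) was at 1.65 and 6.82 FPKM, 4.14-fold higher, and the authors' deposited table lists p as 0.0026. HIST2H2AB (11 of 30) was at 2.42 and 5.78 FPKM, and HIST2H2AB (21 of 30) at 4.67 and 10.2 FPKM. None of these was called. The remaining named copies were not called: HIST1H4F was at 2.71 and 3.79 FPKM, 1.40-fold higher, HIST2H2AB (27 of 30) at 8.36 and 9.40 FPKM, HIST1H4D at 1.86 and 2.16 FPKM, and the rows of hist2h3ca1 at 4.45 and 4.26 FPKM and at 2.45 and 2.53 FPKM.

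Summed over copies, the opposite differences largely cancelled. The 29 H2A copies on chromosomes 7 and 25 together were at 94.4 and 84.5 FPKM, 1.12-fold lower, although single copies among them ranged from 7.66-fold lower to 4.15-fold higher. The 5 H4 rows summed to 11.3 and 8.23 FPKM, of which HIST1H4A alone made up 6.28 and 1.72 FPKM. HIST1H4G, on chromosome 16, was listed at 0 in both groups. HIST1H4I and HIST2H2AB (7 of 30) were under 1 FPKM in both groups; these 3 are the rows that the authors did not test.

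Copies that lie together tended to stand on the same side in some places and not in others. Near-identical copies may share reads, and their handling is not stated, so the counts below need not be of independent rows. Rows within 200 kb of the next were taken as a neighbourhood, which gave 3 groups on chromosome 7, 2 on chromosome 25 and the pair on chromosome 10. In group C of chromosome 7 (76824552 to 76857104), which holds HIST2H2AB (20 of 30), all 3 H2A copies were lower, and their sum was 23.2 and 4.72 FPKM, 4.92-fold lower. In group A of chromosome 7 (6748074 to 6819725), 4 of 5 copies were lower, with sums of 14.4 and 8.07 FPKM. In group B (7228571 to 7292142), 5 of 7 copies were higher, and the sum was 26.6 and 44.0 FPKM.

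The chromosome 25 copies were mixed. In group A of chromosome 25 (36108227 to 36213529), 7 of 11 tested copies were lower, with a median log2 fold change of -0.23 in the authors' deposited table. In group B (37347967 to 37404158) 5 of 8 were lower, with a median of -0.61. Neighbourhoods were drawn after the values were seen, and their difference was not tested.

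**Figure D3:**
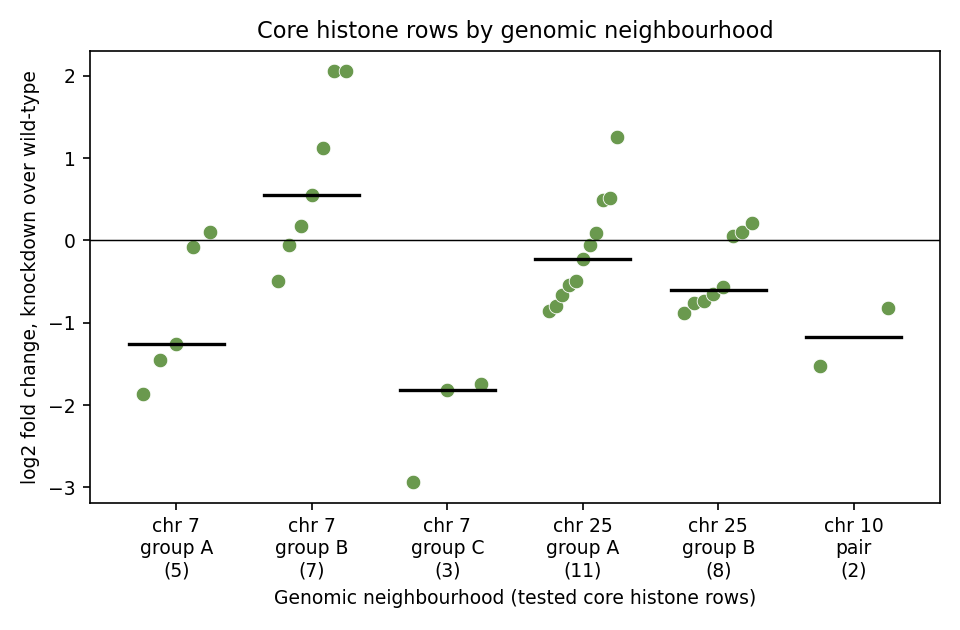
Log2 fold change of knockdown over wild-type in the authors' deposited table (y axis) for each tested core histone row, by genomic neighbourhood (x axis, number of rows in brackets); bars mark medians. All 3 copies of group C on chromosome 7 lie below 0, from -2.94 to -1.75, while 5 of 7 in group B lie above 0.

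Other rows of the table, under symbols outside the name rule, lie between these copies, and they did not follow the histone rows everywhere. Whether some of them are histone genes under other names was not checked. In group B of chromosome 7 the H2A copies had a median log2 fold change of 0.55 in the authors' deposited table, whereas 10 of 11 tested rows between them were below 0, with a median of -0.71. In group C of chromosome 7, 7 of 9 tested rows between the copies were below 0 (median -0.61, in the authors' deposited table). In group A of chromosome 7 the histone median was -1.25 and that of 6 tested rows between them 0.06, in the authors' deposited table. In group B of chromosome 25 the medians there were -0.61 and 0.25. In group A of chromosome 25 both were below 0, at -0.23 and -0.27, with 15 of 22 rows between the copies lower. Among the rows between the copies there 1 was called, against 0.438% of all tested genes in either direction. The values by neighbourhood therefore describe the rows that met the name rule and not the whole region.

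Of the listed genes that supply histones, none was called. SLBP binds the histone stem-loop, NPAT activates histone genes in S phase, and the SET, NASP, CAF-1 and HIRA proteins carry histones or place them on DNA. None of 15 tested rows for histone mRNA processing was called, nor any of 31 for chaperones and deposition or of 40 for S phase and DNA replication; at the 0.438% called over all tested genes, lists of this size would hold few or no calls. At an unadjusted p under 0.05 in the authors' deposited table there was 1 such row among these 3 lists, npm1a, against 5.53% of all tested genes. Their median log2 fold changes in the authors' deposited table were 0.06, 0.0019 and 0.05, against -0.03 over all tested genes above 0.

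Slbp was at 145 and 164 FPKM, and srrt, a partner of the nuclear cap-binding complex, at 86.1 and 79.5 FPKM. NPAT (ENSDARG00000055548) was at 13.9 and 13.1 FPKM. A further row at the same listed position, npat (ENSDARG00000094564), was at 0.491 and 0.00609 FPKM, and the authors' deposited table lists its p as 0.422, so it was not called. Reads shared by these rows could be split between them. Among chaperones, seta was at 745 and 796 FPKM and npm1a, a nucleolar chaperone, at 360.3 and 581 FPKM, 1.61-fold higher, for which the authors' deposited table lists p as 0.0077 and q as 0.424. The replication clamp pcna was at 1064 and 1083 FPKM, and the helicase subunit mcm7 at 451 and 408 FPKM. Summed FPKM of the S phase list was 4343 and 4335, a 1.00-fold ratio, beside the 2.00-fold lower linker sum and the 1.94-fold lower chromosome 10 pair. Any link between the S phase list and the histone values was not tested. Mcm2 and E2F1 of this list and LSM11 (1 of 2) of the processing list were listed at 0 in both groups.

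**Figure D4:**
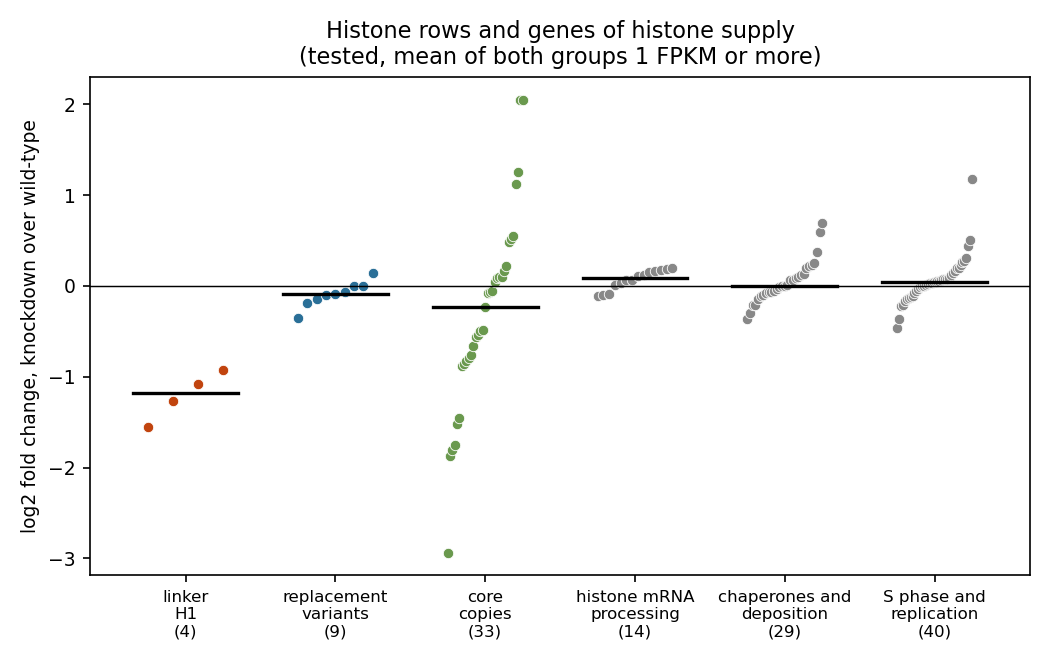
Log2 fold change of knockdown over wild-type in the authors' deposited table (y axis) for tested histone rows (coloured) and genes of 3 histone supply lists (grey), each with a mean of both groups of 1 FPKM or more; bars mark medians and the number of rows is in brackets. The linker rows all lie at -0.92 or below, the replacement variants between -0.35 and 0.14, and the supply lists centre near 0.

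Markers of the pineal complex and of other cell types in the embryonic head differed between the groups as well. Over all tested genes, 0.332% were called lower and 0.106% higher. Of 7 pigment cell markers all 7 were lower and 4 fell, with sums of 145 and 42.3 FPKM. Erythroid markers had 11 rows, of which 3 fell and 1 rose, with sums of 140.4 and 25.4 FPKM. All 3 that fell were globin rows, with both rows of hbae1 listed at 0 in the knockdown. The globin rows of hbbe3 (40.9 and 0.304 FPKM) and hbbe1.1 (20.5 and 0.0709, and 9.36 and 0.0766 FPKM) were lower without a call. The regulator tal1 rose from 8.48 to 20.3 FPKM and made up most of the erythroid sum in the knockdown. The row TAL1 was at 0.563 and 1.39 FPKM and gata1a at 1.52 and 1.72 FPKM, neither called. The rows of slc4a1a and alas2 were lower without a call. All 7 endothelial markers were higher and 4 rose, with sums of 91.3 and 172 FPKM. Muscle markers (6 rows) summed to 12.6 and 24.4 FPKM; the 4 that rose, myl7, cmlc1, tnnt2a and vmhc, are heart genes, while the myogenic factor myod1 was at 0.865 and 0.244 FPKM, 3.55-fold lower, and the actin gene actc1b at 9.20 and 8.26 FPKM, neither called. The 5 epidermis markers, none called, summed to 526 and 691 FPKM. Pineal markers (11 rows) summed to 322 and 193 FPKM, mostly flh at 238 and 129 FPKM without a call. The 1 called member, otx5, fell. Of 10 tested pineal rows 7 were lower and 3 higher, the latter being tbx2b, isl1 and sox1a. RNA of tbx2b itself was at 17.4 and 18.3 FPKM without a call. Neuronal markers (5 rows) summed to 519.95 and 592 FPKM, with gap43 listed at 0 in both groups, and 8 markers of cycling cells to 2010 and 2078 FPKM, with no call in either list. At the shares called over all tested genes, lists as short as those for epidermis, neurons and cycling cells would hold few or no calls. The part of all these marker lists in the histone values was not tested. In a bulk sample, fewer cells of a type and less RNA per cell cannot be told apart.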

How the data were processed

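RNA from sorted pineal complex cells was sequenced in 8 libraries, 4 per group. The Zv9 build and the tools Cuffdiff, TopHat2, Bowtie2, Trimmomatic 0.32, FastQC 0.10.0 and CASAVA 1.8.2 are named, per the submitters' processing notes; no source used here states their settings, the annotation, the RNA selection or the handling of reads that match several copies. The deposited table gives FPKM per group, a log2 fold change of knockdown over wild-type, the authors' test statistic (a score, not used) and their p and q values, per the file headers; calls are the authors' flag. The deposited q matched a Benjamini-Hochberg adjustment over 18954 tested rows to within 5.2e-07. Coordinates are those of the file; whether starts count from 0 or 1 is not stated. Of 20 H2A rows of equal span, 4 were within 0.05 of whole multiples of the lowest value, so depth was not recovered.

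Class and list medians were taken over tested rows above 0 in both groups with Python 3.11.15 and pandas 2.3.3, and the summaries were tested on simulated data. Current symbols were found for 19 of 53 rows. Members, lists and neighbourhoods were chosen with earlier results of these data known. Named rows were all tested linker and variant rows, called core rows, the 3 highest core rows per histone and the 3 largest folds per direction at 1 FPKM or more in both groups; of each supply list, called genes and the 2 highest. NPAT was added after its values were seen. Alternatives were pseudocounts of 1 and 0.1, a minimum of 1 FPKM, TPM scaling, a q under 0.1, and leaving out called or highest rows.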

Additional observations from a re-analysis of the deposited data

How the results depend on the processing

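No paired analysis was possible because each column pools the libraries of a group; for the same reason no library could be left out. The counts of 4 lower and 0 higher called histone rows were the same at a q under 0.1, at 1 FPKM or more in at least 1 group and over rows with a locus of their own. A shift of 0.1 or more in log2 was taken as a move. TPM scaling, which adds 0.106 by construction, gave medians of -1.07 for linker, 0.0097 for replacement variants and -0.39 for core rows, 0.17, 0.11 and 0.15 for the processing, chaperone and S phase lists, and log2 ratios of summed FPKM of -0.89, 0.032 and -0.74 for the 3 histone classes. On log2(FPKM + 1) the linker median was -0.99995 and the core median -0.28. The core median was -0.36 without called rows, and -0.15 over rows at 1 FPKM or more in both groups, a minimum that drops rows low in either group or in both. Without its highest row, histh1l, the linker log2 ratio of sums was -1.10. Without the chromosome 10 pair, an alternative chosen after seeing the data, the core log2 ratio of sums moved from -0.85 to -0.29. Of 29 named histone rows, 5 changed sign under TPM scaling: h2afv (0.04), h3f3a (0.0017), h3f3c (0.10), h2afy2 (0.02) and hist2h3ca1 (0.04); none of these was called. Depth is unknown, so the error of copies at a few FPKM cannot be given.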
